A study of Mus musculus with 8 samples.

Results

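Glutathione and the thioredoxin proteins carry the electrons that cells use to remove hydrogen peroxide and lipid peroxides and to repair oxidised protein thiols. The 10 genes described here are Ggt1, Gclc, Gclm, Gsr, Gpx1, Gpx4, Txn1, Txnrd1, Prdx1 and Prdx2, found by symbol among the 52997 gene symbols of the count table. All 10 are in the table, and all 10 passed the filter on low counts that left 11490 genes to test, with 14 to 972 counts in a library. RNA was sequenced from liver CD4+ T cells of mice of the strain given as Aire- Foxp3 GFP+ (C57/Bl6), which lack Aire, the thymic factor that lets medullary epithelium express tissue antigens, and carry a GFP reporter of Foxp3. The 4 groups were PD-1+ cells at 10 days of age, PD-1+ cells at 5 days, PD-1- cells at 10 days and PD-1- cells at 5 days, with 2 libraries each. Every group shared the Aire deficiency and the sort of DAPI-, CD45+, TCRb+, CD4+, Foxp3 GFP- cells, and no mice with Aire are among the samples, so nothing here bears on the effect of Aire. The labels do not say whether libraries came from separate or pooled animals, so the p-values reflect library-to-library spread, which could be partly technical.

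Glutathione is a tripeptide made in the cytosol by glutamate-cysteine ligase, whose catalytic subunit is Gclc and whose modifier subunit is Gclm, followed by glutathione synthetase. Outside the cell, gamma-glutamyl transferase, encoded by Ggt1, cleaves exported glutathione so that its cysteine can be taken up again. Activated T cells depend on cysteine and glutathione for growth, and on the thioredoxin system to supply ribonucleotide reductase with electrons for DNA synthesis. The 10 genes were selected on measured values of these libraries, the sources do not say which, and the choice singles out Ggt1. Differences between PD-1+ and PD-1- cells are therefore given for all 10 as a description with no test, and so is every difference of Ggt1. Tests are given for the other 9 genes between ages. Whether their age values entered the choice is not known, so these p-values and counts may be affected by it.

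The libraries held 1473216 to 3019551 counts and 16790 to 20424 detected symbols. Pdcd1, which encodes PD-1, stood at 687 and 509 CPM (counts scaled by library size) in 10-day PD-1+ libraries. It stood at 277.5 and 238 CPM in 5-day PD-1+ libraries and at 0.586 to 2.04 CPM in PD-1- libraries. Between ages in PD-1+ cells its log2 fold change was 1.03 ± 0.18 (SE, edgeR, adjusted p = 0.00133). The part of this in the age differences given below was not tested. The summed level of 12 T cell markers was 9840 to 11400 CPM in 10-day PD-1+, 6410 to 6770 CPM in 5-day PD-1+, 7730 to 7790 CPM in 10-day PD-1- and 7210 to 8290 CPM in 5-day PD-1- libraries, with no marker at 0. Aire had 0 to 2 counts in a library, and since T cells are not the cells that express it this does not check the genotype. Both 5-day libraries numbered 3 were male by Xist (1 and 5 counts) and by Y-linked genes (601 and 672 counts), whereas the other 6 libraries had 698 to 1842 Xist counts and 0 counts of Y-linked genes. Differences between ages are therefore also given without those libraries where a call changes.

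The promoters of 8 of the 10 genes were in the RefSeq table for GRCm38.p6, which gives 250 bases before and 50 after each start; Gclc and Gsr were not matched. The windows were searched on both strands for the core of the antioxidant response element, TGACNNNGC, which is bound by Nrf2 with small Maf proteins and by the related Bach repressors. At least 1 window of Ggt1, Gclm, Txnrd1 and Prdx1 held the core, which makes 4 of 8 genes, beside 14.0% of all 27025 genes of the table. By window it was 6 of 16, of which 3 are from Ggt1, beside 12.4% of all 32851 promoters; Ggt1 and Gpx4 have 4 windows each and Txnrd1 has 3, so these genes had more chances of a match. The AP-1 motif TGANTCA was found in the promoter of Prdx1 and in no other of the 8, beside 9.0% of all genes. The stretches with the core are shown because members of both systems share it. A stretch with the AP-1 motif alone is shown for Prdx1 only. The Ggt1 stretch belongs to start 3 of 4 in the table and the Txnrd1 stretch to start 2 of 3. They are written 5′ to 3′ on the plus strand with the match in capitals, and the 3 cores of Gclm, Txnrd1 and Prdx1 read on the opposite strand. In the Prdx1 stretch with the core, an AP-1 motif lies inside the core.
Ggt1, chr10:75571457-75571505: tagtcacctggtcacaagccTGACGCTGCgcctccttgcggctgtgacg
Gclm, chr3:122245403-122245451: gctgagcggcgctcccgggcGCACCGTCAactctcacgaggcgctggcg
Txnrd1, chr10:82859094-82859142: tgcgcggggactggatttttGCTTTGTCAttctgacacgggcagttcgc
Prdx1 AP-1 motif, chr4:116685349-116685388: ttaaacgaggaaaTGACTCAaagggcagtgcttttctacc
Prdx1 core, chr4:116685446-116685494: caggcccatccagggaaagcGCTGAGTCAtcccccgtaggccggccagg
Relative to the start, the cores lie at -83 in Ggt1, -134 in Gclm, -92 in Txnrd1 and -133 in Prdx1. A match of letters is not a binding site, and no binding was measured. Starts 1 and 2 of Ggt1 also held a core. These cores with their flanking bases overlap annotated exons and are not shown.

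Ggt1 was high in 5-day PD-1+ cells and low in the other 3 groups. It had 8.90 and 9.14 CPM (scaled by TMM factors, as are all CPM of tested genes below) in 10-day PD-1+ libraries, 107 and 105 CPM in 5-day PD-1+ libraries, 19.4 and 14.3 CPM in 10-day PD-1- libraries and 10.7 and 22.7 CPM in 5-day PD-1- libraries. The 5-day PD-1+ libraries stand apart from all the others, and the 10-day PD-1+ libraries lie below every PD-1- library. In order, the group means were 106 ± 1.41 CPM in 5-day PD-1+, 16.9 ± 3.62 in 10-day PD-1-, 16.7 ± 8.5 in 5-day PD-1- and 9.02 ± 0.165 in 10-day PD-1+ cells (SD, n = 2 each). The middle pair, the 2 groups of PD-1- cells, did not differ beyond their spread.

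In log2 terms Ggt1 was 3.54 ± 0.35 (SE) lower at 10 than at 5 days in PD-1+ cells (log2 fold change -3.54), beside 0.10 ± 0.35 in PD-1- cells. The difference between PD-1+ and PD-1- cells was -0.93 ± 0.37 at 10 days and 2.71 ± 0.33 at 5 days, so its direction differed between the ages, and over both ages it came to 1.08 ± 0.81. These comparisons share libraries and are not independent of each other. Without the male libraries the age difference in PD-1+ cells was -3.56 and the PD-1 difference at 5 days 3.32. The age difference in PD-1+ cells lay between -3.56 and -3.52 whichever library was left out, while the PD-1 difference at 5 days was 2.21 without 5-day PD-1- replicate 2 and 3.31 without 5-day PD-1- replicate 3.

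Ggt1 spans chr10:75561604-75586200 on the plus strand of GRCm38. None of its longest transcript recurs in another annotated gene over stretches of 25 bases, and exons outside that transcript were not searched. Its neighbour Ggt5, a related transferase that cleaves leukotriene C4, begins 3139 bases downstream, at chr10:75589340-75617200. Ggt5 had 2.85 and 3.87 CPM in 10-day PD-1+, 0 and 4.77 CPM in 5-day PD-1+, 28.5 and 37.7 CPM in 10-day PD-1- and 14.3 and 15.3 CPM in 5-day PD-1- libraries. Its log2 fold change between PD-1+ and PD-1- cells over both ages was -2.98 ± 0.48 (edgeR, adjusted p = 0.000223). It was therefore low in the 5-day PD-1+ libraries in which Ggt1 was high.

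Ggt1 is also a gene of hepatocytes, bile duct cells and kidney, so markers of liver cells are given beside it. The summed level of 12 hepatocyte markers was 67 to 72.5 CPM in 10-day PD-1+, 31.3 to 79.4 CPM in 5-day PD-1+, 17.7 to 19 CPM in 10-day PD-1- and 12.3 to 21.5 CPM in 5-day PD-1- libraries. It was higher in each PD-1+ library than in any PD-1- library, at both ages. At 5 days 4 of the 5 tested hepatocyte markers were called higher in PD-1+ cells, where Ggt1 was higher too. At 10 days 3 of the 5 were called higher in PD-1+ cells, where Ggt1 was lower. The sum of 8 cholangiocyte markers was 18.3 to 19 CPM in 10-day PD-1+, 6.76 to 18.1 CPM in 5-day PD-1+, 4.59 to 6.79 CPM in 10-day PD-1- and 7.03 to 9.27 CPM in 5-day PD-1- libraries. Hnf4a and Cps1 were the 2 hepatocyte markers at 0 in PD-1+ libraries of both ages, and of the cholangiocyte markers Krt19, Krt7 and Tff3 were at 0 there. In PD-1- libraries 6 hepatocyte markers were at 0 at 10 days and 2 at 5 days, and 4 cholangiocyte markers at each age. The part of these cells in the Ggt1 values was not tested.

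The 5 genes whose profile over the 8 libraries lay nearest to Ggt1, by root mean square difference of centred log2 CPM, were Emilin2 (0.443), Hist1h2ak (0.607), Myc (0.681), Lss (0.702) and Gpatch4 (0.713) among 10077 genes. Myc, the growth-promoting transcription factor, had 42.7 and 40.1 CPM in 10-day PD-1+, 158 and 126 CPM in 5-day PD-1+, 52.8 and 44.2 CPM in 10-day PD-1- and 50.6 and 46.6 CPM in 5-day PD-1- libraries. Emilin2 and Hist1h2ak reached at most 8.24 CPM in any library, so their places rest on few counts. Lss, the lanosterol synthase of cholesterol synthesis, had 66.9 and 36.3 CPM in 5-day PD-1+ libraries and 11.3 to 19.9 CPM in the other 6. None of the 5 belongs to the glutathione and thioredoxin genes; of these, Txn1 came nearest to Ggt1 (rank 353, distance 0.995), followed by Prdx1 (rank 409, distance 1.02).

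**Figure D1:**
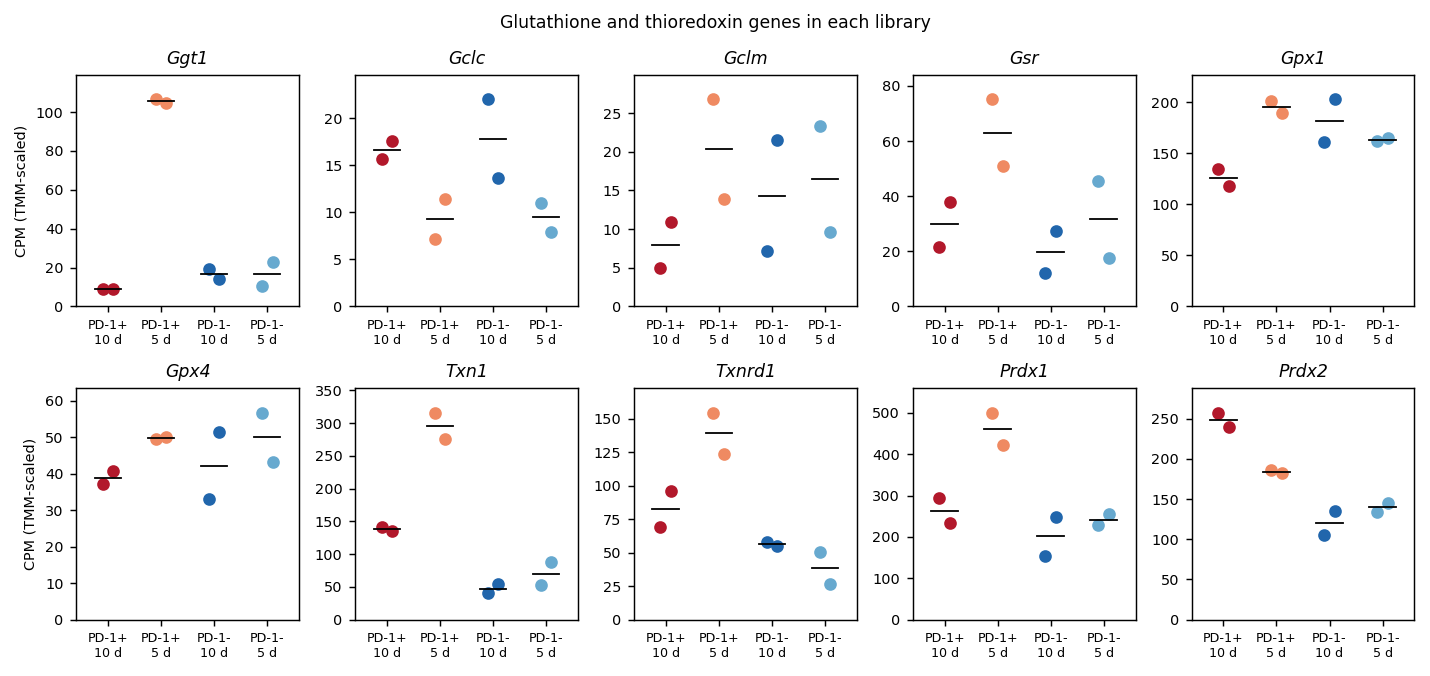
Level of each of the 10 genes in CPM (vertical axis, from 0) in every library, with groups along the horizontal axis in the order PD-1+ at 10 days, PD-1+ at 5 days, PD-1- at 10 days, PD-1- at 5 days. Points are libraries and bars group means (n = 2); Ggt1 stands at 107 and 105 CPM in 5-day PD-1+ libraries and at 22.7 CPM or less in the rest, and Txn1 is higher in each PD-1+ library than in any PD-1- library.

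No age difference of the glutathione-making genes Gclc (chr9:77754535-77794485) and Gclm (chr3:122245557-122270732) passed the test. Gclc had 15.7 and 17.6 CPM in 10-day PD-1+, 7.21 and 11.5 CPM in 5-day PD-1+, 22.0 and 13.7 CPM in 10-day PD-1- and 11 and 7.95 CPM in 5-day PD-1- libraries. The 10-day libraries were above the 5-day libraries in each population. The log2 fold change between ages was 0.82 ± 0.43 in PD-1+ cells (adjusted p = 0.223) and 0.91 ± 0.42 in PD-1- cells (adjusted p = 0.463, unadjusted p = 0.0456). Between PD-1+ and PD-1- cells Gclc differed by -0.09 ± 0.30 over both ages.

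Gclm had 4.99 and 10.9 CPM in 10-day PD-1+, 26.8 and 13.8 CPM in 5-day PD-1+, 7.12 and 21.5 CPM in 10-day PD-1- and 23.3 and 9.65 CPM in 5-day PD-1- libraries. Replicates of 1 group differed by up to about as much as groups did. Its log2 fold change between ages was -1.34 ± 0.61 in PD-1+ cells (adjusted p = 0.176) and -0.34 ± 0.60 in PD-1- cells (adjusted p = 0.911). The PD-1 difference over both ages was -0.22 ± 0.45. Gclm had 14 to 72 counts a library and Gclc 14 to 68.

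Gsr (chr8:33652523-33698163), the glutathione reductase that returns oxidised glutathione to its working form with NADPH, varied widely between replicates. It had 21.7 and 38.0 CPM in 10-day PD-1+, 75.1 and 51.1 CPM in 5-day PD-1+, 12.0 and 27.3 CPM in 10-day PD-1- and 45.7 and 17.6 CPM in 5-day PD-1- libraries. The 5-day PD-1+ libraries were the highest of the 8. Between ages Gsr differed by -1.08 ± 0.50 in PD-1+ cells (adjusted p = 0.196) and by -0.80 ± 0.54 in PD-1- cells (adjusted p = 0.668), and between PD-1+ and PD-1- cells by 0.82 ± 0.34 over both ages. Per length Gsr stood above both ligase subunits, with 22.9 ± 6.18 CPM per kilobase of exon in 5-day PD-1+ cells beside 2.48 ± 0.798 for Gclc and 3.23 ± 1.45 for Gclm there (SD, n = 2 each).

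Gpx1 (chr9:108338903-108340343), the cytosolic selenium-dependent peroxidase that reduces hydrogen peroxide with glutathione, fell with age in PD-1+ cells. It had 134 and 118 CPM in 10-day PD-1+, 202 and 190.0 CPM in 5-day PD-1+, 161 and 203 CPM in 10-day PD-1- and 162 and 165 CPM in 5-day PD-1- libraries. The 10-day PD-1+ libraries were the lowest of the 8. The log2 fold change between ages was -0.63 ± 0.17 in PD-1+ cells (adjusted p = 0.0169) and 0.15 ± 0.17 in PD-1- cells (adjusted p = 0.824). The difference between these age effects was -0.79 ± 0.23 and did not pass the threshold (adjusted p = 0.0938). Between PD-1+ and PD-1- cells Gpx1 differed by -0.52 ± 0.17 at 10 days and by 0.26 ± 0.17 at 5 days. The age call in PD-1+ cells was lost without 5-day PD-1+ replicate 2 (log2 fold change -0.59, adjusted p = 0.138), without 5-day PD-1+ replicate 3, without 10-day PD-1+ replicate 2 and without the male libraries (-0.69, adjusted p = 0.0662).

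Gpx4 (chr10:80047166-80056439), the peroxidase that reduces lipid hydroperoxides within membranes and holds off ferroptosis, varied little. It had 37.0 and 40.8 CPM in 10-day PD-1+, 49.4 and 50.1 CPM in 5-day PD-1+, 33.0 and 51.4 CPM in 10-day PD-1- and 56.7 and 43.2 CPM in 5-day PD-1- libraries. The age difference was -0.35 ± 0.27 in PD-1+ cells (adjusted p = 0.424) and -0.28 ± 0.27 in PD-1- cells (adjusted p = 0.795). The PD-1 difference over both ages was -0.05 ± 0.20. Of the 25-base stretches of the longest Gpx4 transcript, 69.2% recur in other annotated genes, mainly the processed copy Gpx4-ps2, so the level of Gpx4 is uncertain. Gpx4-ps2 itself had at most 3 counts in a library.

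Txn1 (chr4:57943373-57956411, minus strand), the cytosolic thioredoxin that reduces protein disulfides, had the widest gap between the populations of the 10 genes over both ages. It had 141 and 136 CPM in 10-day PD-1+, 316 and 276 CPM in 5-day PD-1+, 40.2 and 54.0 CPM in 10-day PD-1- and 53.5 and 87.4 CPM in 5-day PD-1- libraries. Every PD-1+ library was above every PD-1- library. The PD-1 difference was 1.58 ± 0.23 at 10 days, 2.09 ± 0.22 at 5 days and 1.84 ± 0.18 over both ages on the log2 scale. Txn1 fell with age in PD-1+ cells (log2 fold change -1.10 ± 0.21, adjusted p = 0.00253), while in PD-1- cells it differed by -0.58 ± 0.23 (adjusted p = 0.369, unadjusted p = 0.0229). The difference between these age effects was -0.51 ± 0.31 and was not called (adjusted p = 0.471). The age call in PD-1+ cells was lost without 5-day PD-1+ replicate 2 (-0.997, adjusted p = 0.0542) and held without the male libraries (-1.20, adjusted p = 0.00467).

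Txnrd1 (chr10:82833951-82897712), the selenium-containing reductase that recharges thioredoxin with NADPH, was highest in 5-day PD-1+ cells. It had 69.5 and 95.9 CPM in 10-day PD-1+, 154 and 124 CPM in 5-day PD-1+, 57.6 and 54.6 CPM in 10-day PD-1- and 50.5 and 26.7 CPM in 5-day PD-1- libraries. Every PD-1+ library was above every PD-1- library. The PD-1 difference was 0.56 ± 0.27 at 10 days and 1.81 ± 0.27 at 5 days. Between ages Txnrd1 differed by -0.75 ± 0.26 in PD-1+ cells (adjusted p = 0.0646) and by 0.51 ± 0.28 in PD-1- cells (adjusted p = 0.548). The difference of these was -1.26 ± 0.38 (adjusted p = 0.102), and none passed the threshold. With the replicate numbers as a block in edgeR, the difference of the age effects was -1.34 and passed it (adjusted p = 0.0237). The difference of the age effects passed it without 5-day PD-1- replicate 2 (-1.82, adjusted p = 0.0250) and with no filter on low counts (-1.19, adjusted p = 0.0235). Without the male libraries the age difference in PD-1+ cells was -0.91 and passed it (adjusted p = 0.049).

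Prdx1 (chr4:116685544-116700822) and Prdx2 (chr8:84969587-84974834) are abundant cytosolic peroxiredoxins, which reduce hydrogen peroxide and are recharged by thioredoxin. Prdx1 had 295 and 233 CPM in 10-day PD-1+, 500.3 and 422 CPM in 5-day PD-1+, 155 and 248 CPM in 10-day PD-1- and 229 and 255 CPM in 5-day PD-1- libraries. The 5-day PD-1+ libraries were the highest, and the 10-day PD-1+ libraries overlapped the PD-1- range. Prdx1 fell with age in PD-1+ cells (log2 fold change -0.81 ± 0.20, adjusted p = 0.0161) and differed by -0.28 ± 0.20 in PD-1- cells (adjusted p = 0.700). That call was lost without 5-day PD-1+ replicate 2 (-0.68, adjusted p = 0.166) and without 10-day PD-1+ replicate 2, and held without the male libraries (-0.93, adjusted p = 0.0388). The PD-1 difference was 0.40 ± 0.20 at 10 days and 0.93 ± 0.20 at 5 days.

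Prdx2 had another order of groups, with its highest values at 10 days. It had 258 and 240 CPM in 10-day PD-1+, 186 and 182 CPM in 5-day PD-1+, 106 and 135 CPM in 10-day PD-1- and 134 and 145 CPM in 5-day PD-1- libraries. Every PD-1+ library was above every PD-1- library. The PD-1 difference was 1.05 ± 0.17 at 10 days and 0.40 ± 0.16 at 5 days. Between ages it differed by 0.43 ± 0.16 in PD-1+ cells (adjusted p = 0.0853) and by -0.22 ± 0.17 in PD-1- cells (adjusted p = 0.708), and the difference of these was 0.65 ± 0.23 (adjusted p = 0.172).

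The count of Prdx2 is uncertain. The gene overlaps Junb and Rnaseh2a on the opposite strand, and the strand setting of the counting is not given in the sources used here. Of the 25-base stretches of its longest transcript, 36.0% recur in other genes including these. Junb, an AP-1 subunit, had 5774 ± 161 CPM in 10-day PD-1+, 3716 ± 466 CPM in 5-day PD-1+, 2511 ± 94.8 CPM in 10-day PD-1- and 1314 ± 49.9 CPM in 5-day PD-1- libraries (SD, n = 2 each), so it was higher in PD-1+ cells over both ages (log2 fold change 1.35 ± 0.13, edgeR, adjusted p = 1.2e-06). Its part in the Prdx2 values was not tested. For Prdx1 21.8% and for Txn1 9.54% of such stretches recur elsewhere, for the remaining members other than Gpx4 and Prdx2 at most 4.53%.

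**Figure D2:**
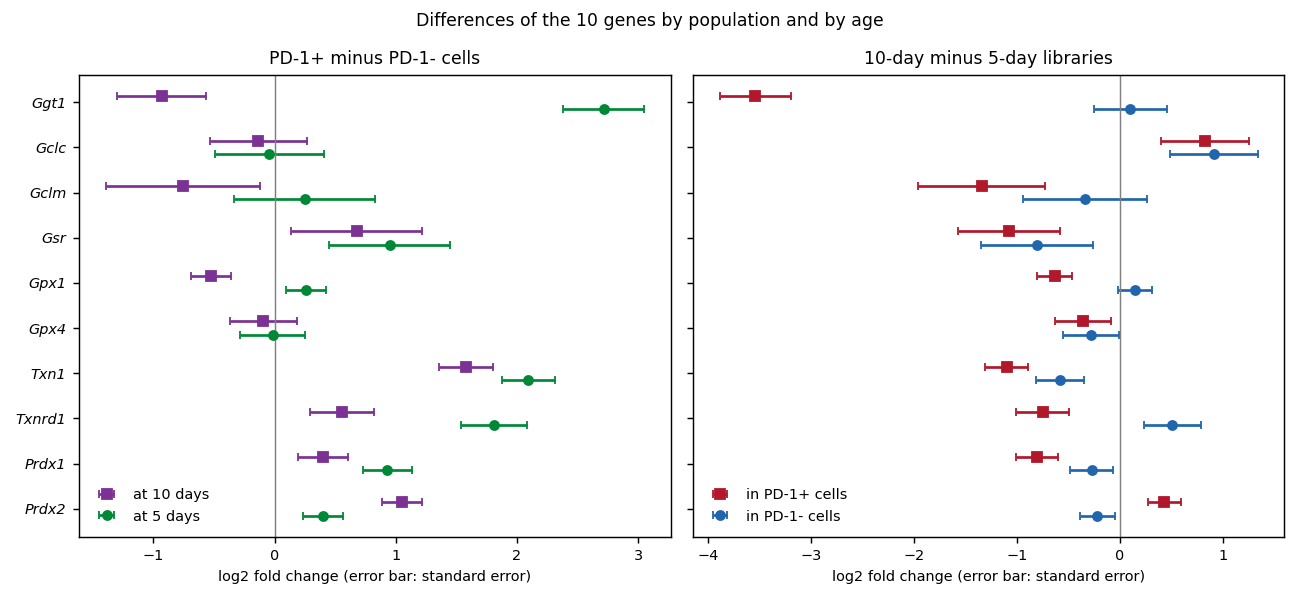
Log2 fold changes (horizontal axes) of the 10 genes, with standard errors as bars, for PD-1+ against PD-1- cells at 10 and 5 days (left) and for 10 against 5 days in PD-1+ and PD-1- cells (right). Ggt1 lies at -0.93 and 2.71 on the left and at -3.54 and 0.10 on the right, and Prdx2 and Gclc are the 2 genes above 0 with age in PD-1+ cells.

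Counted together, 8 of the 10 genes were lower and 2 higher at 10 than at 5 days in PD-1+ cells, and in each of them the 2 ages did not overlap. Over all tested genes 27.2% lay lower and 31.3% higher without overlap in that comparison. Of the 9 genes other than Ggt1, which is described without a test, Gpx1, Txn1 and Prdx1 were called lower, 3 of 9 beside 6.98% of all tested genes, and 0 were called higher beside 7.39% (6 of the 9 had an unadjusted p below 0.05, 5 of them lower and 1 higher, and DESeq2 also called Gpx1, Txn1 and Prdx1 lower and 0 higher). The count fell to 0 of 9 without 5-day PD-1+ replicate 2. The median log2 fold change of the 10, Ggt1 included, was -0.78, beside 0.05 over all tested genes. Age values may have entered the choice of the 10, so these counts are no independent support for a shift with age. A lower level in these bulk libraries can come from fewer cells of a type or from less RNA per cell, which cannot be told apart. Markers of T cells moved with age in PD-1+ cells as well: the sum given above was higher in both 10-day libraries, with 6 of 12 markers called higher, and the sum of 2 CD8 T cell markers was 21.5 to 27.1 CPM in 10-day PD-1+ libraries, against 5.42 to 5.92 CPM in 5-day PD-1+ libraries. Their part in the age differences of the 10 genes was not tested.

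In PD-1- cells 0 of the 9 genes other than Ggt1 were called between ages, beside 0.27% of all tested genes. With edgeR, 2 of the 9 (Gclc and Txn1) had an unadjusted p below 0.05, their adjusted p-values ran up to 0.911 from a lowest value of 0.369, and DESeq2 also called 0. The test of whether the PD-1 difference changed with age called 0 of the 9 (3 at an unadjusted p below 0.05, lowest adjusted p = 0.0938, and 0 with DESeq2), beside 2.12% of all tested genes called either way. With the replicate numbers as a block in edgeR, Txnrd1 was called (adjusted p = 0.0237), and Gpx1, Txn1 and Prdx1 were not. That Gpx1, Txn1 and Prdx1 were called with age in PD-1+ cells and not in PD-1- cells is therefore not shown to be a difference between the populations.

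As a description of what may have led to the choice, with no test, each PD-1+ library was above every PD-1- library in Txn1, Txnrd1 and Prdx2, 3 of 10, while in the other 7 genes the PD-1+ and PD-1- libraries overlapped. Over all tested genes 17.2% lay higher and 17.5% lower without overlap. The median PD-1 difference of the 10 genes was 0.15 at 10 days and 0.67 at 5 days, beside 0.01 and -0.03 over all tested genes.

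Divided by the length of their summed exons, levels spanned a wide range. In 5-day PD-1+ cells Txn1 stood at 282 ± 26.6 CPM per kilobase, Prdx1 at 152 ± 18.2, Gpx1 at 136 ± 5.76 and Prdx2 at 60.4 ± 1.02, followed by Ggt1 at 30.9 ± 0.412 and Gpx4 at 28.9 ± 0.295 (SD, n = 2 each). In 10-day PD-1+ cells Txn1 stood at 132 ± 3.87, Ggt1 at 2.64 ± 0.0483 and Gclc at 4.41 ± 0.357 CPM per kilobase. In PD-1- cells Gpx1 was highest, at 126 ± 20.4 CPM per kilobase at 10 days and 113 ± 1.30 at 5 days. Txn1 in those cells stood at 44.8 ± 9.30 at 10 days and 67 ± 22.9 at 5 days.

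**Figure D3:**
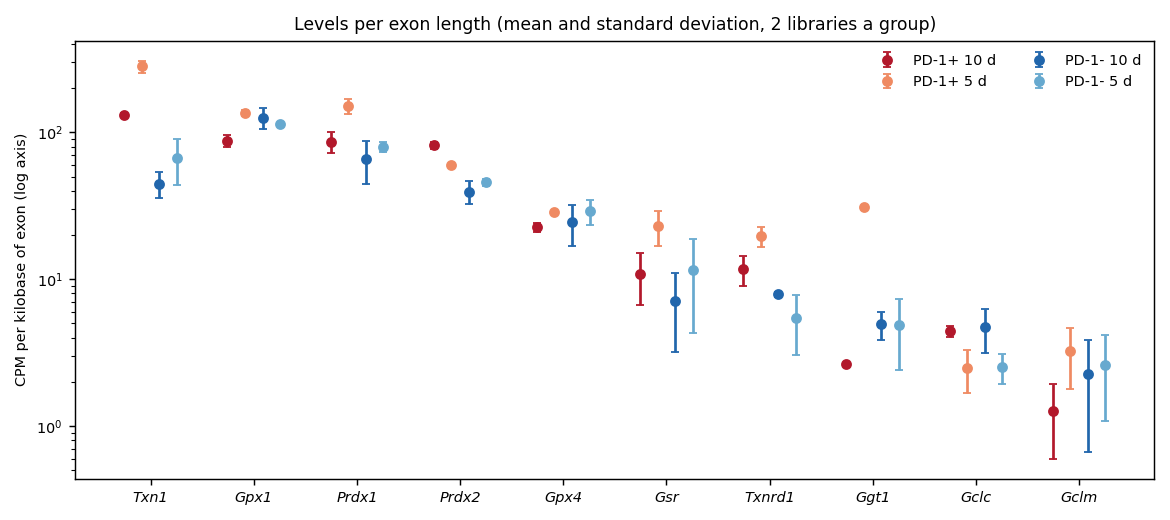
CPM per kilobase of summed exon (vertical log axis) of the 10 genes, ordered by their mean, in PD-1+ cells at 10 and 5 days and in PD-1- cells at 10 and 5 days. Points are means and bars standard deviations (n = 2); Ggt1 stands at 30.9 in 5-day PD-1+ cells and at 2.64 in 10-day PD-1+ cells, and Txn1 at 282 and 132 in the same order.

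The neighbouring genes of these pathways were read from 10 lists with 170 symbols, of which 169 were in the table and 126 passed the filter. The lists were chosen with earlier results of these data known. Their counts and p-values therefore describe these libraries and give no independent support for a shift of the pathways. Over both ages, in PD-1+ cells 44 of the 126 were called higher and 19 lower, 50% in all beside 41.4% of all tested genes, and their median log2 fold change was 0.26 beside -0.01. Values with ± for these genes are log2 fold changes with standard errors, and their adjusted p-values come from edgeR. Among the other genes that make, import or break down glutathione, 4 of 11 were higher and 1 lower, beside 21.9% and 19.6%. Ggct, which breaks down gamma-glutamyl amino acids, rose by 1.17 ± 0.21 (adjusted p = 0.000414), Slc3a2, the heavy chain of amino acid transporters including the cystine importer, by 0.59 ± 0.13 (adjusted p = 0.00173) and Cndp2, a cysteinylglycine dipeptidase, by 0.46 ± 0.13 (adjusted p = 0.0102). The cystine importer Slc7a11 had 22 counts over the PD-1+ and 17 over the PD-1- libraries and was not tested.

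The glutaredoxin Glrx, which uses glutathione to reduce protein disulfides, showed a wide separation. It had 605 and 281 CPM in 10-day PD-1+, 201 and 156 CPM in 5-day PD-1+, 26.9 and 24.7 CPM in 10-day PD-1- and 21.4 and 17 CPM in 5-day PD-1- libraries. Every PD-1+ library was far above every PD-1- library, and the log2 fold change was 3.66 ± 0.30 (adjusted p = 6.2e-06). With Esd, an esterase that frees glutathione from its formaldehyde adduct (0.62 ± 0.14, adjusted p = 0.00281), it made 2 of 7 genes of its list higher, with 5 not called.

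Of the glutathione transferases, which attach glutathione to foreign or reactive molecules, 4 of 11 were higher and 1 lower. Gstt2 rose by 0.89 ± 0.21 (adjusted p = 0.00381) and Gstp3 by 0.77 ± 0.18 (adjusted p = 0.00378). Gstt3 had 60 counts over the PD-1+ libraries and 0 over the PD-1- libraries, at least 17.7-fold higher against a floor of 3 counts over the group. Mgst2, a membrane transferase that also makes leukotriene C4, had 32.4 and 34.4 CPM in 10-day PD-1+, 16.0 and 9.07 CPM in 5-day PD-1+, 111 and 103 CPM in 10-day PD-1- and 122 and 116 CPM in 5-day PD-1- libraries, and was lower in PD-1+ cells by a log2 fold change of -2.37 ± 0.29 (adjusted p = 4.76e-05).

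The thioredoxin list had 10 of 19 genes higher in PD-1+ cells and 1 lower. Rrm1 and Rrm2, the subunits of ribonucleotide reductase, rose by 1.71 ± 0.18 (adjusted p = 5.39e-06) and 1.65 ± 0.20 (adjusted p = 3.41e-05), and the thioredoxin-like Txnl1 by 0.98 ± 0.14 (adjusted p = 5.08e-05). The 1 gene that fell was Txnip, which binds and inhibits thioredoxin. Txnip had 217 and 186 CPM in 10-day PD-1+, 86.5 and 94.5 CPM in 5-day PD-1+, 1067 and 787 CPM in 10-day PD-1- and 785 and 810 CPM in 5-day PD-1- libraries. Its groups run opposite to those of Txn1, lowest in 5-day PD-1+ cells, with a PD-1 log2 fold change of -2.66 ± 0.19 (adjusted p = 1.52e-07).

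Of the other peroxiredoxins and their partners 3 of 8 were higher and 4 lower. The secretory-pathway Prdx4 rose by 1.47 ± 0.20 (adjusted p = 4.62e-05) and the mitochondrial and peroxisomal Prdx5 by 0.86 ± 0.17 (adjusted p = 0.000948). The sulfiredoxin Srxn1, which repairs overoxidised peroxiredoxins, had 34, 15, 3 and 0 counts in PD-1+ libraries (10-day, then 5-day) and 0 in each PD-1- library, so that it was higher by at least 15.3-fold against the same floor; DESeq2 did not call it (adjusted p = 0.0660). The sestrins Sesn1 (-3.23 ± 0.16, adjusted p = 1.96e-09) and Sesn3 (-0.87 ± 0.16, adjusted p = 0.000702), which restrain mTORC1, and Prdx6 (-0.75 ± 0.12, adjusted p = 0.000226), a peroxiredoxin that uses glutathione, were lower.

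Genes of the Nrf2 list, the main transcriptional program of antioxidant genes, went both ways, with 5 of 18 higher and 6 lower. Nfe2l2, which encodes Nrf2 itself, had 70.9 and 68.5 CPM in 10-day PD-1+, 106 and 85.0 CPM in 5-day PD-1+, 243 and 198 CPM in 10-day PD-1- and 214 and 210.1 CPM in 5-day PD-1- libraries, a log2 fold change of -1.41 ± 0.15 (adjusted p = 3.81e-06). The repressor Bach2 was lower as well (-2.60 ± 0.21, adjusted p = 1.76e-07), as was the small Maf gene Mafk (-0.68 ± 0.14, adjusted p = 0.00141). Its relative Mafg rose by 2.41 ± 0.35 (adjusted p = 8.18e-05) and Blvra, the biliverdin reductase, by 1.29 ± 0.19 (adjusted p = 8.51e-05). The classic target Nqo1 was called higher, with 3.21 and 0.703 CPM in 10-day PD-1+, 9.26 and 7.64 CPM in 5-day PD-1+, 0 and 1.30 CPM in 10-day PD-1- and 0 and 0.568 CPM in 5-day PD-1- libraries; it had 3 counts over all PD-1- libraries, so no fold is given, and the call was lost without the male libraries (adjusted p = 0.0537).

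Among genes of NADPH supply 2 of 13 were higher and 1 lower. Mthfd2 (0.99 ± 0.16, adjusted p = 0.000142) and Mthfd1l (1.01 ± 0.16, adjusted p = 0.000194), enzymes of mitochondrial one-carbon metabolism, rose, and the mitochondrial isocitrate dehydrogenase Idh2 fell (-1.80 ± 0.15, adjusted p = 2.55e-07). Of the enzymes that make or remove superoxide and hydrogen peroxide 5 of 10 were higher and 1 lower. The NADPH oxidase genes Ncf4 (1.59 ± 0.18, adjusted p = 7.75e-06), Cyba (0.94 ± 0.14, adjusted p = 7.63e-05) and Rac2 (0.80 ± 0.12, adjusted p = 0.000117) rose, and Ccs, the copper chaperone of superoxide dismutase, fell (-1.71 ± 0.20, adjusted p = 9.93e-06).

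Gpx1, Gpx4 and Txnrd1 contain selenocysteine, and the list of selenoprotein synthesis and methionine sulfoxide genes had 6 of 19 higher and 4 lower. Sephs2, which makes the selenium donor, rose by 1.22 ± 0.19 (adjusted p = 0.000125), its paralog Sephs1 by 0.65 ± 0.17 (adjusted p = 0.00727) and the selenoprotein Selenoh by 0.71 ± 0.19 (adjusted p = 0.00834). The secreted selenium carrier Selenop had 206 and 188 CPM in 10-day PD-1+, 136 and 156 CPM in 5-day PD-1+, 1451 and 1131 CPM in 10-day PD-1- and 1189 and 1110 CPM in 5-day PD-1- libraries, and fell by 2.84 ± 0.14 on the log2 scale (log2 fold change -2.84, adjusted p = 1.71e-09). Secisbp2, which binds selenocysteine insertion elements, fell (-0.69 ± 0.16, adjusted p = 0.00274), and Msrb2 was called lower (-1.13 ± 0.39, adjusted p = 0.0303), a call lost without, for example, 10-day PD-1- replicate 1 (-0.73, adjusted p = 0.204) and in 6 other alternatives.

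In the list of lipid peroxidation and ferroptosis genes 3 of 10 were higher and 7 were not called. These were Aifm2, a ferroptosis suppressor that reduces ubiquinone (3.02 ± 0.77, adjusted p = 0.00579), at 7.12 and 8.79 CPM in 10-day PD-1+, 8.75 and 2.86 CPM in 5-day PD-1+, 1.94 and 0 CPM in 10-day PD-1- and 0 and 1.14 CPM in 5-day PD-1- libraries; the metal importer Slc39a14 (1.39 ± 0.43, adjusted p = 0.0177); and the transferrin receptor Tfrc (0.47 ± 0.18, adjusted p = 0.0476). The call of Slc39a14 was lost without 10-day PD-1+ replicate 2 (1.21, adjusted p = 0.0625) and without the male libraries, and that of Tfrc in 11 of 15 alternatives, 5 of them with 1 library left out (for example without 5-day PD-1- replicate 2, 0.32, adjusted p = 0.190).

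**Figure D4:**
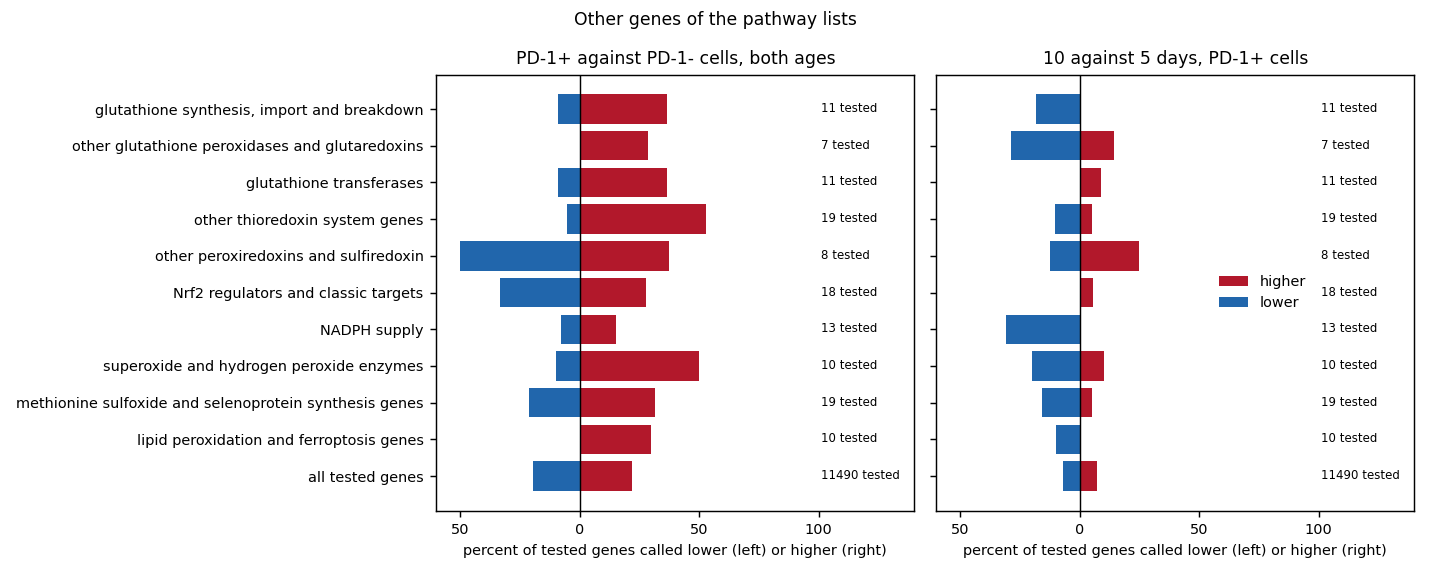
Percent of tested genes of each pathway list called higher (right of 0) or lower (left of 0) in PD-1+ against PD-1- cells over both ages and at 10 against 5 days in PD-1+ cells, with the number tested at the right and all 11490 tested genes as the bottom bar. The thioredoxin list has 10 of 19 genes higher in PD-1+ cells, and NADPH supply has 4 of 13 lower at 10 days.

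Between ages in PD-1+ cells, 8 of the 126 pathway genes were higher and 17 lower at 10 days, beside 7.39% and 6.98% of all tested genes. Rrm2 fell by 1.10 ± 0.19 (log2 fold change -1.10, adjusted p = 0.00146), Rrm1 by 0.91 ± 0.19 (-0.91, adjusted p = 0.00655), Sod1, the cytosolic superoxide dismutase, by 1.08 ± 0.22 (-1.08, adjusted p = 0.00359) and Mthfd1, of cytosolic one-carbon metabolism, by 1.20 ± 0.24 (-1.20, adjusted p = 0.00357). Pgd, of the pentose phosphate pathway (-0.74 ± 0.17, adjusted p = 0.0071), Lap3, an aminopeptidase (-1.13 ± 0.26, adjusted p = 0.00899), Cndp2 (-0.79 ± 0.16, adjusted p = 0.00444) and Prdx4 (-0.93 ± 0.26, adjusted p = 0.0244) fell as well. These age genes were called in this comparison and are named for that reason.

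Txnip rose with age in PD-1+ cells by 1.15 ± 0.17 (adjusted p = 0.00029), as did Mgst2 by 1.42 ± 0.28 (adjusted p = 0.00284) and Glrx by 1.31 ± 0.33 (adjusted p = 0.0367). Osgin1, an Nrf2 target, had 82.6 and 62.9 CPM in 10-day PD-1+ libraries, against 10.3 and 0 CPM in 5-day PD-1+ libraries, and 2.27 to 9.11 CPM in PD-1- libraries (log2 fold change between ages in PD-1+ cells 3.84 ± 0.94, adjusted p = 0.0436). Cybb, the catalytic subunit of the phagocyte NADPH oxidase, had 64.5 and 94.9 CPM in 10-day PD-1+ libraries, against 9.78 and 5.25 CPM in 5-day PD-1+ libraries (3.41 ± 0.61, adjusted p = 0.00557). Markers of dendritic cells, which express Cybb, summed to 77 to 90 CPM in 10-day PD-1+ and 33.4 to 39.3 CPM in 5-day PD-1+ libraries over 8 markers, with Siglech at 0 in the 5-day libraries, and those of 12 macrophage markers to 65.9 to 70.3 CPM and 46.5 to 48.2 CPM in the same order. Their part in the Cybb result was not tested.

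Without 5-day PD-1+ replicate 2 the pathway count was 4 higher and 1 lower, and without 5-day PD-1+ replicate 3 it was 3 higher and 7 lower. Of 14 alternatives, the calls of Rrm2 and Txnip held in all, and those of Sod1, Mthfd1 and Cndp2 were lost in 1, without 5-day PD-1+ replicate 2 (adjusted p = 0.0902, 0.0559 and 0.0989). Rrm1, Pgd, Lap3, Mgst2 and Cybb lost theirs in 2, Prdx4 in 4, Osgin1 in 7 and Glrx in 8. In PD-1- cells 0 of the 126 were called between ages with edgeR and 0 with DESeq2, and 14 had an unadjusted p below 0.05 (lowest adjusted p = 0.0747).

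**Figure D5:**
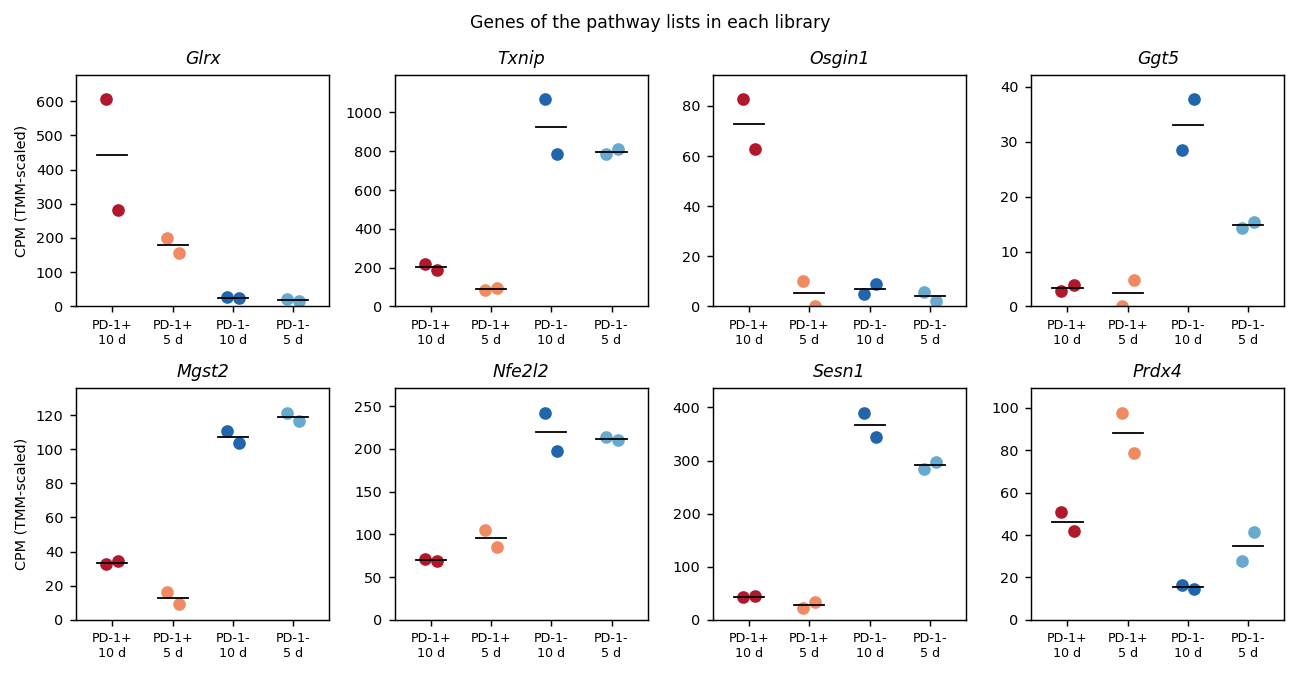
Level in CPM (vertical axis, from 0) of 8 pathway genes in every library, in the group order PD-1+ at 10 days, PD-1+ at 5 days, PD-1- at 10 days, PD-1- at 5 days, with points for libraries and bars for group means (n = 2). The 8 genes were chosen after their values were seen: Glrx reaches 605 CPM in 10-day PD-1+ cells, Txnip 1067 CPM in 10-day PD-1- cells, and Osgin1 is at 82.6 and 62.9 CPM in 10-day PD-1+ cells and at 10.3 CPM or less in the other libraries.

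Markers of some other cells moved with the populations. Hepatocyte markers summed to 31.3 to 79.4 CPM in PD-1+ and 12.3 to 21.5 CPM in PD-1- libraries, with 4 of the 5 tested markers higher in PD-1+ cells. Hnf4a and Cps1 were at 0 in PD-1+ libraries, and Serpina1a and Serpina1c in PD-1- libraries. Endothelial and stromal markers summed to 106 to 138 CPM in PD-1+ and 314 to 388 CPM in PD-1- libraries, but only 1 of these 10 markers passed the filter. Erythroid markers summed to 2.87 to 7.03 CPM and 11.5 to 30.8 CPM in the same order, also with 1 tested. Dendritic markers summed to 33.4 to 90 CPM and 10.9 to 38.8 CPM, ranges that overlap, and CD8 T cell markers to 5.42 to 27.1 CPM and 30 to 48.7 CPM. Selenop is also made by hepatocytes, whose markers summed higher in PD-1+ libraries, whereas Selenop was lower there. The part of these sums in the differences between the populations was not tested.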

How the data were processed

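The authors deposited raw read counts per gene symbol for 8 libraries; the submitters' processing notes name STAR 2.5.4, featureCounts and mm10. Annotation and strand setting of the counting were not given in the sources used here. Per the labels' protocols, double-sorted cells were lysed, and poly(A) RNA was amplified from oligo(dT) and tagmented. Counts were tested with edgeR 4.0.16 (R 4.3.3): filterByExpr on the 4 groups, TMM scaling and robust quasi-likelihood F tests, fitted once with age and PD-1 as additive terms and once with the 4 groups. P-values were adjusted by the Benjamini-Hochberg method over the 11490 tested genes and called below 0.05. Standard errors are the absolute log2 fold change over the square root of F. CPM of markers, Pdcd1 and pooled counts use library totals without TMM factors. Lengths and coordinates are from GENCODE M21 (GRCm38). Other settings included DESeq2 1.42.0. The additive PD-1 comparison was tested on simulated data, with a smaller share of changed genes than was called here. The comparisons from the fit of the 4 groups were not tested in that way. The 10 genes and the lists were chosen with earlier results of these data known. Pathway genes named in the comparison of PD-1+ with PD-1- cells are up to 3 higher and 3 lower per list by smallest p.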

Additional observations from a re-analysis of the deposited data

Results flagged for a closer look

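The PD-1 difference of 4 pathway genes differed between the ages by the interaction test in edgeR. This test sets the log2 difference between PD-1+ and PD-1- cells at 10 days against that at 5 days. Ggt1 is given beside them as a description only, with a difference of -3.64 ± 0.49. No p is given for it, since its pattern may have led to its choice. Of the 126 pathway genes, Lap3 differed by -1.57 ± 0.38 (adjusted p = 0.0438) and Tfrc by -0.94 ± 0.24 (adjusted p = 0.0491), while Mgst2 differed by 1.57 ± 0.36 (adjusted p = 0.0316) and Txnip by 0.93 ± 0.23 (adjusted p = 0.0438). Over all tested genes 2.12% were called. Each of these 4 calls was lost in several of the fits with a library left out, among them Lap3 and Tfrc without 5-day PD-1+ replicate 2 (adjusted p = 0.248 and 0.211) and Mgst2 and Txnip without 5-day PD-1+ replicate 3 (adjusted p = 0.148 and 0.123).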

How the results depend on the processing

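In PD-1+ against PD-1- cells over both ages, calls over all genes stayed within 1.5 times the main count in every alternative run (3971 to 4374 with 1 library left out). Without both male libraries 2426 genes were called in the PD-1 comparison at 5 days (main 3936), 943 with age in PD-1+ cells (main 1651), 72 with age in PD-1- cells (main 31) and 118 in the interaction (main 244). Leaving out 1 library gave 2298 to 3936 genes at 5 days, 2203 to 3485 at 10 days, 481 to 1804 with age in PD-1+ cells (1 to 5 of the 10 genes), 5 to 83 with age in PD-1- cells and 57 to 261 in the interaction (1 to 2 of the 10). Counts of the 10 include Ggt1, which is described only. With no filter on low counts 180 genes were called with age in PD-1- cells and 469 in the interaction, there with 2 of the 10 genes, and DESeq2 called 75 with age in PD-1- cells. The cause was not tested. Fewer libraries or more genes entered those fits, except the DESeq2 fit, which used the same libraries and genes as the main fit.

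Reversed directions were confined, among the 10 genes and the alternatives run, to differences that were not called. Without both male libraries the interaction of Gclc was 0.45 and that of Gpx4 0.0874. With 1 library left out, the age difference in PD-1- cells ran from -1.25 to 0.48 for Gclm, -1.44 to 0.0799 for Gsr, -0.0181 to 0.31 for Gpx1, -0.61 to 0.0311 for Gpx4 and -0.64 to 0.0356 for Prdx1, and the interaction from -0.38 to 0.32 for Gclc, -1.16 to 0.36 for Gsr and -0.39 to 0.25 for Gpx4. Other scalings moved the median of all genes by at most 0.09 in size (upper-quartile factors at 10 days, -0.09).

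Same-numbered libraries of an age deviated together with r = 0.114 at 10 days and 0.0938 at 5 days, so the numbers were not taken to pair them. However, 6 of 8 libraries deviated most like their own number. The 2 libraries of a group deviate from their mean by equal and opposite amounts, so these are not 8 separate observations. At 5 days both libraries numbered 3 were male and both numbered 2 female. Same-numbered libraries may therefore share animals, which the labels do not say and the main fits do not model. With a replicate block 4399 genes were called over both ages, 4158 at 5 days, 3563 at 10 days and 483 in the interaction. Of the 10 genes, Ggt1 aside, Txnrd1 was called there (-1.34, edgeR, adjusted p = 0.0237), and Gpx1, Txn1 and Prdx1 were not. Gclc and Gclm had 14 to 72 counts a library, where counting error is larger relative to the level than for Prdx1.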

Other observations

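Of the 169 pathway genes in the table, 43 did not pass the filter, 4 of them with 0 counts in every library and 36 with fewer than 10 counts in any. The highest count among them was 15, for Maff.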
